A study of Mus musculus with 13 samples.

Results

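The 9 genes described here are Nr3c1, which encodes the glucocorticoid receptor, and 8 of its textbook target genes, Fkbp5, Klf9, Tsc22d3, Per1, Dusp1, Sgk1, Zbtb16 and Ddit4. They are 9 of the 19505 gene symbols on the array, and each has 1 row. The receptor gene and the textbook targets are known from the pathway, but all 9 were proposed with earlier results of these arrays in view. Fkbp5 and Klf9 were chosen on their values in these arrays. The group differences of the members are thus given as a description, without p-values. The wider gene lists used below were also chosen with earlier results known. Where the text says which members passed the threshold of the fit over all genes, that follows in part from how they were chosen and supports nothing. All 9 passed the filter on low signal, which kept the 10601 genes above their array's median on at least 4 arrays. Klf9 was above it on all 9 BRSST arrays and on 0 of the 4 sgLuc arrays, so it passed through the groups where it is high. Ddit4 was above it on 9 of 13 arrays, and the other members were above it on every array.

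Mouse bone marrow was profiled on 13 Affymetrix arrays in 3 groups. In every group LSK cells, an immature fraction of marrow that includes the stem cells, came from Cas9 knock-in mice, received guide RNAs by transduction, and 24 h later were given to C57Bl/6J mice irradiated with 7 Gy. The BRSST+sgEzh2 group (4 arrays) received the guide combination named BRSST plus a guide against Ezh2, which encodes a histone methyltransferase. The BRSST+sgLuc group (5 arrays) received BRSST plus sgLuc, read here as a control guide against luciferase, and the sgLuc group (4 arrays) received sgLuc alone. The sources used here give neither the genes that BRSST stands for, nor the harvest time of each sample, nor the age of the mice. Whole marrow was taken when a mouse showed signs of leukemia or at 6 months, so it can hold edited, unedited and host cells, and the time and disease state at harvest cannot be told apart from the guides. The labels do not say whether arrays are separate mice, so standard errors and p-values measure the spread between these arrays, which may be technical.

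The glucocorticoid receptor is a nuclear receptor that waits in the cytoplasm in a complex with HSP90 chaperones. Once it binds its hormone, which is mainly corticosterone in the mouse, it moves to the nucleus, where it switches on one set of genes and holds back another, among them many inflammatory genes. In blood and marrow, glucocorticoids are known for killing immature lymphocytes, for releasing neutrophils and for damping inflammation. Raised RNA of genes such as Fkbp5, Per1 and Tsc22d3 is widely used as a readout of receptor activity, although each of these genes also answers to other signals.

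The promoters of 6 target genes are printed because DNA around the start site is one place where the receptor and other factors can act, and because these genes differ in the array values that follow. The windows are from RefSeq on GRCm38.p6 and run from 250 bases before a transcription start to 50 bases after it, 5′ to 3′ on the gene's strand. Capitals mark 4 motifs, searched on both strands: the receptor's 6-base motif AGAACA, the E-box CACGTG bound by clock factors and others, the cyclic AMP response element TGACGTCA, and TATAAA. In the Sgk1 window capitals also cover the 3 bases between AGAACA and the TGTTCT that follows it. The Sgk1 window is chr10:21993640-21993939 (plus strand), 1 of 6 for that gene, and Per1 is chr11:69098699-69098998 (plus strand), 1 of 2. Fkbp5 is chr17:28486100-28486399 (minus strand), Dusp1 is chr17:26508423-26508722 (minus strand), Tsc22d3 is chrX:140600473-140600772 (minus strand), 1 of 3, and Klf9 is chr19:23140976-23141275 (plus strand). Where a gene had several windows, one with a motif was chosen, and the other windows of Per1 and Tsc22d3 held none of the 4 motifs.
Sgk1: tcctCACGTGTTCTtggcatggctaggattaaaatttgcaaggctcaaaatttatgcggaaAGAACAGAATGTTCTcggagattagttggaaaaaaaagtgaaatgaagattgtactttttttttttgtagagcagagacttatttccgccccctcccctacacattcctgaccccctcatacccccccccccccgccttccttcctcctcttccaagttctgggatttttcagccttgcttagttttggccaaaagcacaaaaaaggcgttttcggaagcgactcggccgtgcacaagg
Per1: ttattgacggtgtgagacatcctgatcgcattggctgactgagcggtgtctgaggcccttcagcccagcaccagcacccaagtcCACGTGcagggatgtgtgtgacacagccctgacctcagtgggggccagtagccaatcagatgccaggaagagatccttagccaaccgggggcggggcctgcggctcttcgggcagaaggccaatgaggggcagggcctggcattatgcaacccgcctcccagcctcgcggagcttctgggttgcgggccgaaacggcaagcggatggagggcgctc
Fkbp5: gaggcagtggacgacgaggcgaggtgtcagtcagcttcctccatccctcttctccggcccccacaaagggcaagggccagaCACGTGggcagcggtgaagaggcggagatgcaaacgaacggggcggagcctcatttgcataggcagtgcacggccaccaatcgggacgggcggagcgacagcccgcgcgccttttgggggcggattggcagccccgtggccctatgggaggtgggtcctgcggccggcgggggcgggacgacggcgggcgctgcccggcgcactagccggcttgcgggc
Dusp1: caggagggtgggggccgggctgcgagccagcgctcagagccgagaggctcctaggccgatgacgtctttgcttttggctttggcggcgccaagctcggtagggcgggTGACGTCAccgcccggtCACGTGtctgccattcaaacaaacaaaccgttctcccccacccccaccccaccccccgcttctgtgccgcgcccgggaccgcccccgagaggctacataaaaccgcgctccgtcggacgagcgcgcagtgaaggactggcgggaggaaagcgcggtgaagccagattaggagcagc
Tsc22d3: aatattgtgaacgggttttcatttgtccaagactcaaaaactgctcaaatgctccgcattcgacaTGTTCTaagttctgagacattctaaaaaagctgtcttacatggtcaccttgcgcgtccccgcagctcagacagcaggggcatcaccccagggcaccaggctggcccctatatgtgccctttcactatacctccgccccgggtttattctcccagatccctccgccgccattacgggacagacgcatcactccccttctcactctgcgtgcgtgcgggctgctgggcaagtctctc
Klf9: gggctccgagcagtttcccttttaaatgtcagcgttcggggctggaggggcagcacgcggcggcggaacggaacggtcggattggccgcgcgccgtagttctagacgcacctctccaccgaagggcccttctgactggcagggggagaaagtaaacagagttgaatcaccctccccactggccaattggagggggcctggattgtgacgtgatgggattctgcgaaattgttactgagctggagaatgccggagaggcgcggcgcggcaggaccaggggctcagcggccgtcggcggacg

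In the Sgk1 window, AGAACA at position -189 from the start was followed, after 3 bases, by its reverse complement, which together make an exact receptor palindrome. The same exact palindrome was found in 3 of the 32851 windows searched (0.0091%), those of Sgk1, Acnat2 and Gm35041, and a palindrome with up to 2 mismatches was found in 1.84% of windows. A further AGAACA of that Sgk1 window overlapped its E-box. The chromosome of Nr3c1 was left out of the search, so the windows counted here exclude it, and Zbtb16 had no window. AGAACA by itself was common, in 19.0% of all windows searched and in 4 of the 15 windows of the 7 members searched. The printed Tsc22d3 window held 1 copy, at -185. An E-box was found in 7.15% of all windows and in 4 of those 15, at -169 for Fkbp5, -166 for Per1, -126 for Dusp1 and -246 for Sgk1. Dusp1 also had the cyclic AMP response element at -143, which 1.79% of windows hold, and TATAAA was found in 13.6% of all windows and in 2 of the 15, both of Sgk1. The Klf9 window held none of these letters. A match is a run of letters and not a bound site, and receptor sites known for several of these genes lie outside such windows.

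The arrays had deposited log2 signals from 3.23 to 13.75 with array medians of 7.19 to 7.32. The mean correlation of an array with the others of its group was 0.959 to 0.967 in BRSST+sgEzh2, 0.915 to 0.955 in BRSST+sgLuc and 0.969 to 0.983 in sgLuc. S100a8, S100a9, Ngp, Camp and Ltf, granule and alarmin genes of the neutrophil line that fills marrow, read 12.17 or more on every array. Ezh2, the gene cut by sgEzh2, averaged 8.78 ± 0.50 in BRSST+sgEzh2 (SD, n = 4) and 9.82 in BRSST+sgLuc, against 10.35 in sgLuc. Its difference between the BRSST groups was -1.05 ± 0.26 (SE), with a limma adjusted p of 0.0808. Array label numbers form 2 runs, with sgLuc apart from both BRSST groups, so an array batch and sgLuc cannot be told apart. The Y-linked genes Uty and Kdm5d were high on BRSST+sgEzh2 replicates 1 and 2, on BRSST+sgLuc replicates 1 and 4 and on every sgLuc array, so this Y-linked class also differs between the groups. Both comparisons with sgLuc use the same 4 sgLuc arrays.

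Nr3c1 itself, the receptor gene, read 8.27, 8.23, 8.12 and 8.56 in BRSST+sgEzh2, 8.36, 8.02, 7.82, 8.12 and 8.35 in BRSST+sgLuc, and 8.61, 8.48, 8.24 and 8.44 in sgLuc. The 3 groups overlapped. The difference on the log2 scale was -0.15 ± 0.14 for BRSST+sgEzh2 against sgLuc (SE, 95% interval -0.45 to 0.16). It was -0.31 ± 0.14 for BRSST+sgLuc against sgLuc (interval -0.60 to -0.02). The mean of the receptor gene was thus not above that of sgLuc in either BRSST group. These are differences in whole marrow, where fewer cells of a type and less RNA per cell cannot be told apart.

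**Figure D1:**
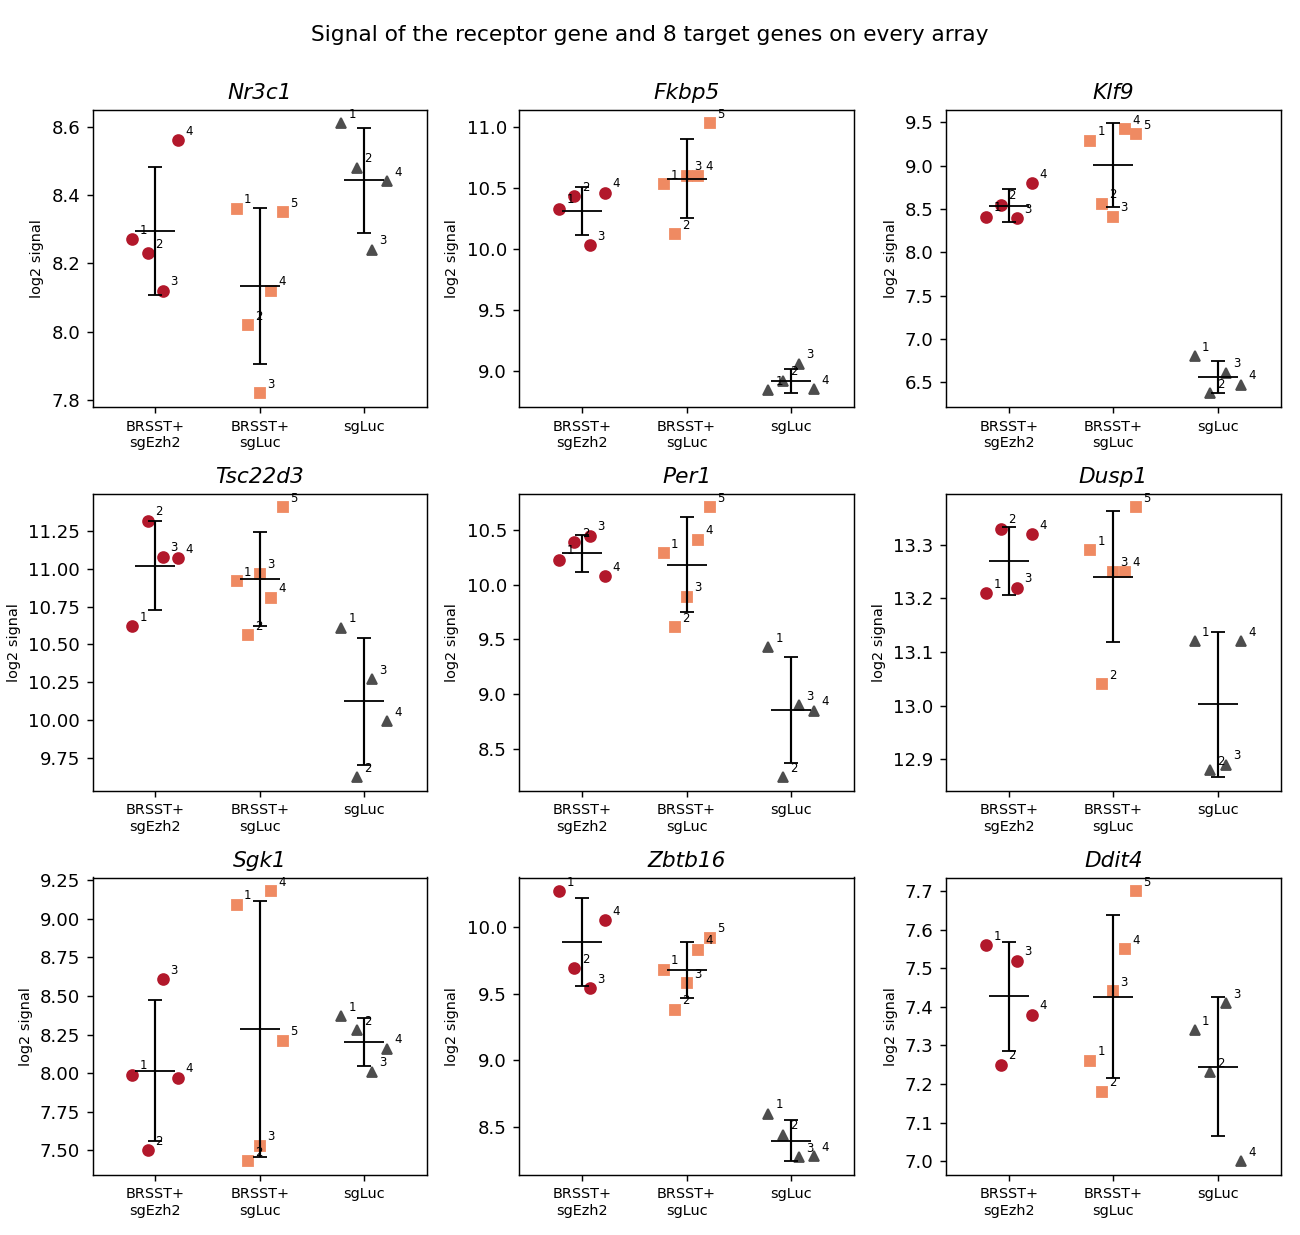
Deposited log2 signal of each of the 9 genes on every array, with BRSST+sgEzh2 (circles, n = 4), BRSST+sgLuc (squares, n = 5) and sgLuc (triangles, n = 4). Small digits are replicate numbers, which only name the arrays, and bars are mean ± SD. The y axes differ between genes. Fkbp5, Klf9, Per1 and Zbtb16 lie above every sgLuc array in both BRSST groups, while Nr3c1, Sgk1 and Ddit4 overlap. The share of all genes that lie apart in this way is not given here, so nothing is read from it.

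Fkbp5 encodes FKBP51, a co-chaperone that joins the HSP90 complex and lowers the receptor's affinity for hormone, closing a feedback loop. It read 10.33, 10.43, 10.03 and 10.46 in BRSST+sgEzh2, 10.53, 10.12, 10.60, 10.60 and 11.03 in BRSST+sgLuc, and 8.84, 8.92, 9.06 and 8.85 in sgLuc. Every BRSST array lay above every sgLuc array. Mean signal was 1.39 ± 0.16 higher in BRSST+sgEzh2 than in sgLuc (SE, 2.62-fold) and 1.66 ± 0.16 higher in BRSST+sgLuc than in sgLuc (3.15-fold). The sgLuc arrays were tight, with an SD of 0.10.

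Klf9, a Krüppel-like zinc-finger transcription factor that itself regulates other glucocorticoid-responsive genes, had the widest gap of the members in both comparisons with sgLuc. It read 8.41, 8.55, 8.39 and 8.80 in BRSST+sgEzh2, 9.29, 8.56, 8.41, 9.42 and 9.36 in BRSST+sgLuc, and 6.80, 6.37, 6.61 and 6.47 in sgLuc. The lowest BRSST array was far above the highest sgLuc array, and within BRSST+sgLuc, replicates 2 and 3 sat below the other arrays. The differences were 1.98 ± 0.22 for BRSST+sgEzh2 (SE, 3.93-fold) and 2.44 ± 0.21 for BRSST+sgLuc (5.44-fold), each against sgLuc. Since Klf9 was below the array median on every sgLuc array, where array signals are less proportional to RNA, these folds are less certain than those of the other members.

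Zbtb16 encodes PLZF, a BTB zinc-finger repressor of stem cells and innate-like lymphocytes that hormone-bound receptor induces in many tissues. It read 10.27, 9.69, 9.54 and 10.05 in BRSST+sgEzh2, 9.68, 9.38, 9.58, 9.83 and 9.92 in BRSST+sgLuc, and 8.60, 8.44, 8.27 and 8.28 in sgLuc. Neither BRSST group overlapped sgLuc. The differences from sgLuc were 1.49 ± 0.17 in BRSST+sgEzh2 (SE, 2.81-fold) and 1.28 ± 0.16 in BRSST+sgLuc (2.43-fold).

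Per1, a repressor at the core of the circadian clock, read 10.23, 10.39, 10.45 and 10.08 in BRSST+sgEzh2, 10.29, 9.61, 9.89, 10.41 and 10.71 in BRSST+sgLuc, and 9.43, 8.24, 8.90 and 8.85 in sgLuc. All BRSST arrays were above all sgLuc arrays, although BRSST+sgLuc replicate 2 came close to sgLuc replicate 1. The differences from sgLuc were 1.43 ± 0.25 in BRSST+sgEzh2 (SE, 2.70-fold) and 1.33 ± 0.24 in BRSST+sgLuc (2.51-fold). Per1 RNA also cycles over the day, and the sources used here do not give the hour of harvest. Per2, another clock repressor, averaged 8.49 in BRSST+sgEzh2 and 8.92 in BRSST+sgLuc, against 8.84 in sgLuc. It passed the test in none of the 3 comparisons.

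Tsc22d3 encodes GILZ, a leucine zipper protein that carries part of the anti-inflammatory action of glucocorticoids. It read 10.62, 11.32, 11.08 and 11.07 in BRSST+sgEzh2, 10.92, 10.56, 10.97, 10.81 and 11.41 in BRSST+sgLuc, and 10.61, 9.62, 10.27 and 9.99 in sgLuc. BRSST+sgEzh2 just cleared sgLuc at its nearest arrays, and BRSST+sgLuc replicate 2 fell inside the sgLuc range because sgLuc replicate 1 was high. The differences from sgLuc were 0.90 ± 0.22 in BRSST+sgEzh2 (SE, 1.86-fold) and 0.81 ± 0.21 in BRSST+sgLuc (1.76-fold). The first of these was the less stable call of the fit, and was lost when BRSST+sgEzh2 replicate 2, sgLuc replicate 2 or sgLuc replicate 4 was left out.

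Dusp1, a phosphatase that switches off MAP kinases, read 13.21, 13.33, 13.22 and 13.32 in BRSST+sgEzh2, 13.29, 13.04, 13.25, 13.25 and 13.37 in BRSST+sgLuc, and 13.12, 12.88, 12.89 and 13.12 in sgLuc. BRSST+sgEzh2 lay above sgLuc without overlap, and BRSST+sgLuc overlapped it through replicate 2. The differences from sgLuc were small, 0.27 ± 0.10 in BRSST+sgEzh2 and 0.24 ± 0.10 in BRSST+sgLuc (SE). These signals are close to the highest of any row and array, 13.75, where differences can be compressed.

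Sgk1, a kinase that acts on ion channels and FOXO factors, read 7.99, 7.50, 8.61 and 7.97 in BRSST+sgEzh2, 9.09, 7.43, 7.53, 9.18 and 8.21 in BRSST+sgLuc, and 8.37, 8.28, 8.01 and 8.16 in sgLuc. It had the widest spread of the members in both BRSST groups: its SD was 0.45 in BRSST+sgEzh2 and 0.83 in BRSST+sgLuc, beside 0.16 in sgLuc. The difference from sgLuc was -0.19 ± 0.36 in BRSST+sgEzh2 (SE, interval -0.96 to 0.59) and 0.09 ± 0.34 in BRSST+sgLuc (interval -0.65 to 0.82). The high BRSST+sgLuc arrays, replicates 1 and 4, are those with high Uty and Kdm5d. Among the arrays high in those Y-linked genes, Sgk1 averaged 7.75 in BRSST+sgEzh2 (n = 2) and 9.14 in BRSST+sgLuc (n = 2), against 8.20 in sgLuc (n = 4). The part of the Y-linked class in this scatter was not tested.

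Ddit4 encodes REDD1, an inhibitor of mTORC1 that glucocorticoids, DNA damage and low oxygen can induce. It read 7.56, 7.25, 7.52 and 7.38 in BRSST+sgEzh2, 7.26, 7.18, 7.44, 7.55 and 7.70 in BRSST+sgLuc, and 7.34, 7.23, 7.41 and 7.00 in sgLuc. All 3 groups overlapped. The difference from sgLuc was 0.18 ± 0.14 in BRSST+sgEzh2 (SE, interval -0.11 to 0.47) and 0.18 ± 0.13 in BRSST+sgLuc (interval -0.10 to 0.46), so a difference of more than 0.47 lay outside both intervals.

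Between BRSST+sgEzh2 and BRSST+sgLuc, which differ in the Ezh2 guide, the groups overlapped for every member. The share of all genes whose groups overlapped is not given here. Klf9 had the widest gap, -0.47 ± 0.21 (SE, interval -0.91 to -0.03), and the receptor gene differed by 0.16 ± 0.14 (interval -0.13 to 0.45). Fkbp5 differed by -0.27 ± 0.16 (interval -0.60 to 0.07), Zbtb16 by 0.21 ± 0.16 (interval -0.13 to 0.55) and Per1 by 0.10 ± 0.24 (interval -0.40 to 0.61). The interval of Sgk1, -1.01 to 0.46, was the widest, and those of Tsc22d3 (-0.36 to 0.53), Dusp1 (-0.18 to 0.24) and Ddit4 (-0.27 to 0.28) also held 0. None of the 9 passed the adjusted threshold here, and 1, Klf9, had an unadjusted limma p under 0.05. Of all genes tested, 0.783% passed in this comparison, 0.67% higher and 0.113% lower in BRSST+sgEzh2.

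Values of the comparisons with sgLuc helped to choose the members, so nothing is read from the following count. Fkbp5, Klf9, Per1, Tsc22d3 and Zbtb16, 5 of the 9, were past the limma threshold in each BRSST group, all of them higher. Among all 10601 genes, 9.37% passed in BRSST+sgEzh2 against sgLuc (5.51% higher, 3.86% lower) and 22.5% passed in BRSST+sgLuc against sgLuc (10.8% higher, 11.7% lower). The median difference over the members was 0.90 in BRSST+sgEzh2 and 0.81 in BRSST+sgLuc against sgLuc, where the median of all genes tested was 0.02 and 0.01. Between the BRSST groups it was 0.03, beside 0.01.

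**Figure D2:**
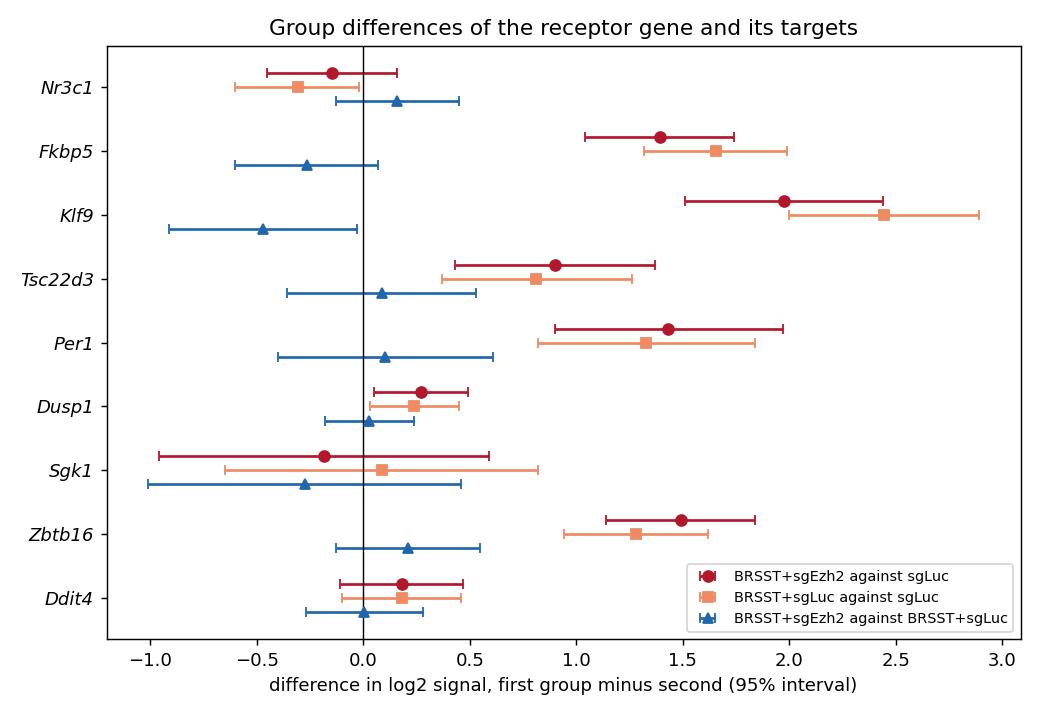
Difference in mean log2 signal for each of the 9 genes (x axis, first named group minus second) with 95% intervals from the fit over 13 arrays. Fkbp5, Klf9, Tsc22d3, Per1 and Zbtb16 sit to the right of 0 in both comparisons with sgLuc, from 0.81 to 2.44. Differences between the BRSST groups lie between -0.47 and 0.21.

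Within groups the deviations of the members were compared in pairs. Over the deviations of the 13 arrays from their group means, all 36 pairs of members had a correlation above 0, 16 of them above 0.5, with a median of 0.47. The highest were Tsc22d3 with Per1 (0.80), Nr3c1 with Klf9 (0.74), Klf9 with Per1 (0.70) and Per1 with Dusp1 (0.70), and the lowest was Nr3c1 with Ddit4 (0.01). These are descriptions over 13 points that share their arrays, hybridisations and cell mixture. The shares among other gene pairs were not computed, so nothing particular to the members is read from these counts. BRSST+sgLuc replicate 2 shows the pattern: it was the lowest or next to lowest array of its group for all 9 genes. That array also had the highest mean signal of its group for B lineage markers (8.69) and for T and NK cell markers (8.29), and their part in the pattern was not tested. By the same measure the genes most like Nr3c1 were Rnf11 (0.94), AW549877 (0.91) and Msl1 (0.91), and those most like Fkbp5 were Mfn2 (0.96), Atp11b (0.96) and Man1b1 (0.96). None of these is a member, and the highest correlation with a member was 0.74 for Nr3c1 (Klf9) and 0.56 for Fkbp5 (Zbtb16).

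A wider list of 45 other genes known to be induced by glucocorticoids in various tissues was set beside the members. Of these, 43 were on the array and 34 passed the filter. In BRSST+sgEzh2 against sgLuc, 4 rose and 1 fell (11.8% and 2.94% of those tested), with a median difference of 0.00. In BRSST+sgLuc against sgLuc, 8 rose and 6 fell (23.5% and 17.6%), with a median of 0.07. Over all genes tested the medians were 0.02 and 0.01, and the shares that rose and fell were those given above. The 14 calls in BRSST+sgLuc became 7 when BRSST+sgLuc replicate 1 or 4 or sgLuc replicate 1 or 4 was left out, 8 without sgLuc replicate 2 and 9 without sgLuc replicate 3.

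Mt1, Pik3ip1 and Cdkn1a rose in both BRSST groups, and these calls held with any 1 array left out. Mt1, a metallothionein that binds zinc and answers to metals as well as to glucocorticoids, read 10.17, 10.59, 10.61 and 10.10 in BRSST+sgEzh2, 11.19, 10.13, 10.73, 10.87 and 10.76 in BRSST+sgLuc, and 8.21, 8.47, 8.41 and 8.75 in sgLuc. No BRSST array came near the sgLuc range. It rose by 1.91 ± 0.20 in BRSST+sgEzh2 (SE, limma adjusted p 5.66e-05) and by 2.28 ± 0.19 in BRSST+sgLuc (7.06e-06). Mt2, its close relative, averaged 9.53 in BRSST+sgEzh2 and 9.83 in BRSST+sgLuc, against 9.31 in sgLuc, and it passed in neither comparison with sgLuc. Pik3ip1, a brake on PI3 kinase, rose by 1.36 ± 0.24 in BRSST+sgEzh2 (limma adjusted p 0.00281) and by 1.69 ± 0.23 in BRSST+sgLuc (0.000294). Cdkn1a, which encodes the cell cycle inhibitor p21 and is also a classic p53 target, rose by 1.08 ± 0.22 in BRSST+sgEzh2 (limma adjusted p 0.00783) and by 1.29 ± 0.21 in BRSST+sgLuc (0.00114).

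Hif3a and Il1r2 differed between the BRSST groups. Hif3a, an alpha subunit of the hypoxia-inducible factors, read 8.70, 8.39, 8.41 and 8.71 in BRSST+sgEzh2, 7.06, 7.03, 7.22, 7.69 and 6.69 in BRSST+sgLuc, and 6.51, 6.47, 6.75 and 6.71 in sgLuc. The BRSST+sgEzh2 arrays stood above all others. Hif3a was above the array median on all 4 of them, on 1 BRSST+sgLuc array and on 0 sgLuc arrays, so it passed the filter through the group where it is high, and its folds rest on low signals in the other groups. It was 1.42 ± 0.17 higher in BRSST+sgEzh2 than in BRSST+sgLuc (SE, limma adjusted p 0.000883) and 1.95 ± 0.18 higher than in sgLuc (1.09e-05), and both calls held with no filter and with any 1 array left out. Il1r2, the decoy receptor for interleukin-1, read 10.73, 10.63, 10.06 and 11.13 in BRSST+sgEzh2, 12.39, 11.37, 11.63, 12.25 and 12.33 in BRSST+sgLuc, and 11.05, 10.95, 10.45 and 10.78 in sgLuc. It was high in BRSST+sgLuc alone, whose arrays overlapped neither other group. The difference was -1.36 ± 0.24 for BRSST+sgEzh2 against BRSST+sgLuc (limma adjusted p 0.0202, up to 0.0684 with 1 array left out) and 1.19 ± 0.24 for BRSST+sgLuc against sgLuc (0.00397). Il1r2 is also on the list of mature neutrophil markers. Those were the 2 calls of the wider list between the BRSST groups, 1 higher and 1 lower in BRSST+sgEzh2, with a list median of -0.05.

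Other members of the wider list rose by less in BRSST+sgLuc against sgLuc: Irs2, an adaptor of insulin signalling, by 0.61 ± 0.13 (SE, limma adjusted p 0.00502), Hif3a by 0.53 ± 0.17 (0.0344), Nfkbia, the inhibitor of NF-kappaB, by 0.52 ± 0.15 (0.0238), and Zfp36, which destabilises cytokine mRNAs, by 0.44 ± 0.12 (0.0161). The call of Irs2 held with any 1 array left out. That of Hif3a was lost in 6 of the 9 such fits, and those of Nfkbia and Zfp36 were each lost in at least 1. Tgfbr3, a co-receptor for TGF-beta, fell by 0.89 ± 0.15 in BRSST+sgLuc (limma adjusted p 0.00116) and by 0.82 ± 0.16 in BRSST+sgEzh2 (0.00458). It read 6.62, 7.2, 7.02 and 7.35 in BRSST+sgEzh2, 6.64, 7.06, 7.06, 7.21 and 6.91 in BRSST+sgLuc, and 7.93, 7.83, 7.85 and 7.86 in sgLuc, so neither BRSST group overlapped sgLuc. Tgfbr3 was above the array median on all 4 sgLuc arrays and on 1 BRSST array, and thus passed the filter through sgLuc. Klf4, Bcl6, Lpin1, Arrdc3 and Tnfaip3 also fell in BRSST+sgLuc, with differences from -0.76 to -0.61, and each of these calls was lost in 6 to 8 of the 9 fits without 1 array.

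**Figure D3:**
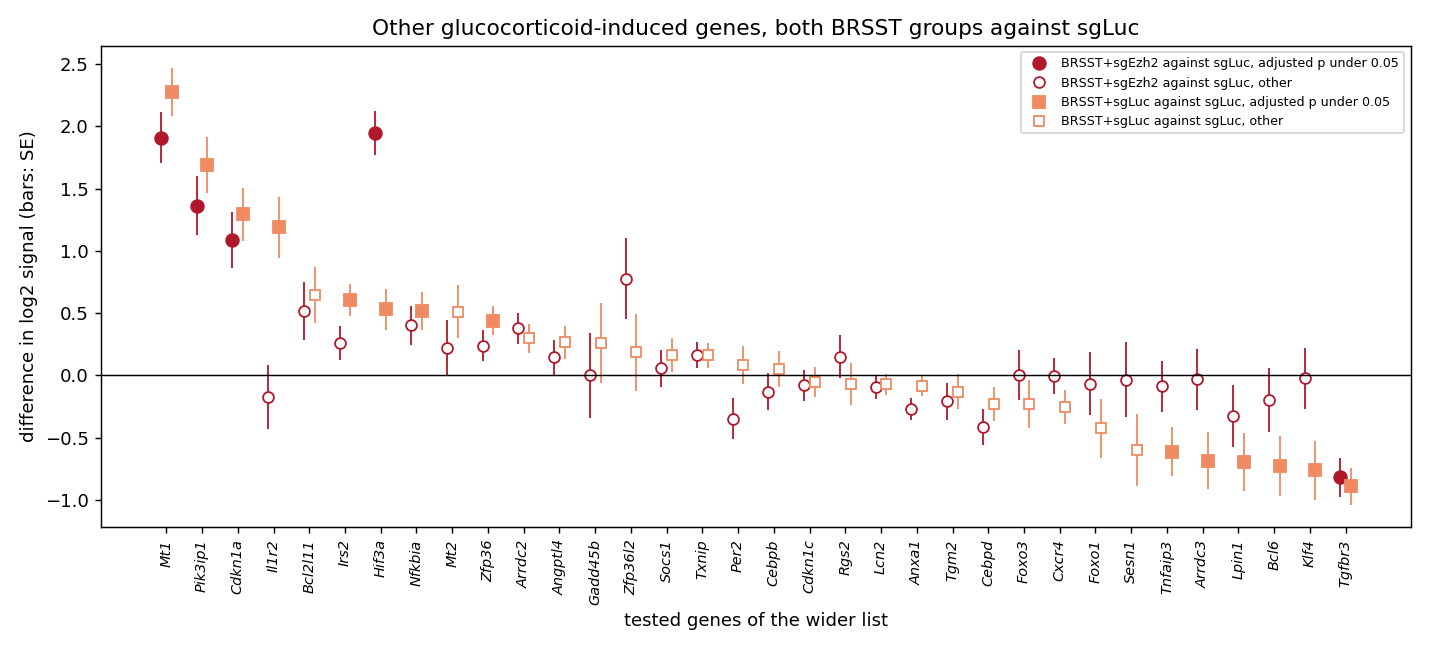
Difference in log2 signal from sgLuc (y axis, bars are SE) for the 34 tested genes of the wider induced list, for BRSST+sgEzh2 (circles) and BRSST+sgLuc (squares), with filled symbols for a limma adjusted p under 0.05. Mt1, Pik3ip1 and Cdkn1a are filled above 0 and Tgfbr3 below 0 in both. Hif3a is far higher in BRSST+sgEzh2 (1.95) than in BRSST+sgLuc (0.53). Both sets of points use the same sgLuc arrays.

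A list of inflammatory genes that the receptor is known to hold back was compared, which also holds Jun and Fos. Genes that passed went both ways in BRSST+sgLuc against sgLuc and only up in BRSST+sgEzh2 against sgLuc. Of 22 listed, 14 were tested. In BRSST+sgEzh2 against sgLuc, 4 rose (28.6%, where 5.51% of all genes did) and 0 fell (3.86% of all genes). Those that rose were Jun and Fos, subunits of AP-1, by 1.04 ± 0.29 (SE, limma adjusted p 0.0395) and 0.92 ± 0.18 (0.0064), and the chemokines Ccl3 by 0.93 ± 0.23 (0.0209) and Ccl2 by 0.83 ± 0.24 (0.045). The Ccl2 call was lost whichever array was left out, that of Jun in 6 of 8 such fits and that of Ccl3 in 4, while that of Fos held. In BRSST+sgLuc against sgLuc, 3 rose (21.4%, where 10.8% of all genes did) and 2 fell (14.3%, where 11.7% did). Cxcl2, a neutrophil chemokine, rose by 1.60 ± 0.35 (limma adjusted p 0.00613), Jun by 0.95 ± 0.28 (0.0245) and Fos by 0.68 ± 0.17 (0.0136). Ptgs2, the inducible cyclooxygenase, fell by 1.22 ± 0.31 (0.0118) and Mmp9, a neutrophil gelatinase, by 0.50 ± 0.15 (0.031). Of the 9 fits without 1 array, Jun lost its call in 6 and Mmp9 in 5. Between the BRSST groups 0 of 14 passed in limma, with 1 at an unadjusted p under 0.05. The genes with the smallest p there were Ccl3, at 0.63, and Tnf, at -0.84.

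The machinery around the receptor was followed through its chaperones, its coregulators and its hormone supply. Of the chaperones that fold it, 9 of 14 were tested. In BRSST+sgLuc against sgLuc 1 of them passed (11.1%, where 22.5% of all genes did), and 0 passed in the other comparisons, with 2 at an unadjusted limma p under 0.05 between the BRSST groups and 0 in BRSST+sgEzh2 against sgLuc. Bag1, a co-chaperone of HSP70, rose by 0.44 ± 0.10 (SE, limma adjusted p 0.00736). Of its coregulators, 11 of 16 were tested, and 3 fell in BRSST+sgLuc against sgLuc (27.3%, where 11.7% of all genes did) and 1 in BRSST+sgEzh2 against sgLuc (9.09%, where 3.86% did). In BRSST+sgLuc against sgLuc, Smarca4, the BRG1 motor of the SWI/SNF remodeller, fell by 0.58 ± 0.14 (limma adjusted p 0.00994), the coactivator Ncoa3 by 0.44 (0.0173, lost without sgLuc replicate 1) and the deacetylase Hdac3 by 0.37 (0.0132). In BRSST+sgEzh2 against sgLuc, Ep300, a histone acetyltransferase, fell by 0.54 ± 0.13 (limma adjusted p 0.02), a call lost in 3 of the 8 fits without 1 array. Of the genes that make, clear or carry the hormone, 5 of 8 were tested and 0 passed in limma in any comparison, with an unadjusted p under 0.05 for 0 between the BRSST groups, for 1 in BRSST+sgEzh2 set against sgLuc, and for 2 in BRSST+sgLuc set against it. H6pd, which supplies the cofactor for reactivating the hormone, came nearest, at -0.47 in BRSST+sgLuc against sgLuc (limma adjusted p 0.0554).

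Of 23 close relatives (paralogs) of the members, 15 were tested, and 2 rose in BRSST+sgEzh2 against sgLuc (13.3%, where 5.51% of all genes did), and 1 rose and 2 fell in BRSST+sgLuc against sgLuc (20% together, where 22.5% did). Sgk3, a relative of Sgk1, read 10.24, 10.23, 10.02 and 10.37 in BRSST+sgEzh2, 9.5, 9.69, 9.78, 9.63 and 9.62 in BRSST+sgLuc, and 10.48, 10.31, 10.35 and 10.42 in sgLuc. BRSST+sgLuc lay below both other groups. Sgk3 fell by 0.75 ± 0.10 in BRSST+sgLuc against sgLuc (SE, limma adjusted p 0.000261) and was 0.57 ± 0.10 higher in BRSST+sgEzh2 than in BRSST+sgLuc (0.0149, a call lost in 3 of 9 fits without 1 array). Klf13, a relative of Klf9, rose by 0.61 ± 0.10 in BRSST+sgLuc (limma adjusted p 0.00124), and by 0.41 ± 0.11 in BRSST+sgEzh2 (0.0269, a call lost whichever array was left out). Klf10 rose by 0.82 ± 0.18 in BRSST+sgEzh2 (limma adjusted p 0.0121), and Zbtb7b fell by 0.45 in BRSST+sgLuc (0.0407, lost in 6 of 9 fits without 1 array), each against sgLuc.

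Markers of the cell types that marrow can hold differed between the groups. The lists share some genes. Spib is on the B lineage and plasmacytoid dendritic cell lists, and Kit and Gata2 are on the basophil and mast cell and progenitor lists. The counts stand beside 5.51% of all genes higher and 3.86% lower in BRSST+sgEzh2, and 10.8% higher and 11.7% lower in BRSST+sgLuc, each against sgLuc. Il7r, Fcer1a, Ccr9 and Klk1 passed the filter through sgLuc alone. Cd22, Spib, Vpreb3, Cd3g, Zap70, Cd8a, Siglech, Cx3cr1 and C1qa were above the array median on all 4 sgLuc arrays. They were above it on too few BRSST arrays to pass without sgLuc. The counts of tested markers below include all of these genes. The erythroid marker Rhag passed it through BRSST+sgLuc alone, the group where it is high. Of 11 tested B lineage markers, 3 fell in BRSST+sgEzh2 (27.3%) and 10 in BRSST+sgLuc (90.9%) against sgLuc, and the mean log2 signal of the list ran from 6.96 to 9.20 in BRSST+sgEzh2, 6.80 to 8.69 in BRSST+sgLuc and 9.29 to 10.83 in sgLuc. Of 10 T and NK cell markers, 1 fell in BRSST+sgEzh2 (10.0%) and 7 in BRSST+sgLuc (70.0%), with ranges of 6.53 to 8.83 in BRSST+sgEzh2, 6.60 to 8.29 in BRSST+sgLuc and 8.56 to 8.94 in sgLuc. Every BRSST array was below every sgLuc array on the B lineage list, and the T and NK list overlapped. Of the BRSST+sgEzh2 calls, those of Cd22 and Il7r were lost in 6 and 4 of the 8 fits without 1 array. Of the BRSST+sgLuc calls, those of Cd79a, Cd3d and Cd8a were lost in 5, 4 and 8 of the 9 such fits. Calls that held there include those of Blnk, Ebf1, Cd22, Igll1, Il7r, Cd3g, Klrb1c and Il2rb. Of 9 plasmacytoid dendritic cell markers, 7 fell in BRSST+sgEzh2 and 8 in BRSST+sgLuc, with a list mean of at most 8.87 on every BRSST array and at least 9.60 in sgLuc. In BRSST+sgEzh2 the call of Ly6d was lost in 6 of the 8 fits without 1 array and that of Bst2 in 2. Those of Ccr9, Klk1 and Cox6a2 held. Of 7 basophil and mast cell markers, 4 fell in BRSST+sgEzh2 and 5 in BRSST+sgLuc, with list means from 8.75 to 9.54 in BRSST+sgEzh2, 8.76 to 9.07 in BRSST+sgLuc and 10.50 to 10.91 in sgLuc. Of 13 mature neutrophil markers, 3 fell in BRSST+sgEzh2 (23.1%), and 7 fell (53.8%) and 1 rose in BRSST+sgLuc, with list means between 12.15 and 12.46 in BRSST+sgEzh2, 12.22 and 12.34 in BRSST+sgLuc and 12.50 and 12.68 in sgLuc, without overlap. Of 9 erythroid markers, 4 rose in BRSST+sgLuc (8.25 to 9.11) and 0 passed in limma in BRSST+sgEzh2 (7.48 to 8.18, with 1 at an unadjusted p under 0.05), beside 7.46 to 7.97 in sgLuc. Among those that rose, Ank1 lost its call in 4 of the 9 fits without 1 array, and Car2 in 2. Monocyte and macrophage markers (2 higher and 3 lower of 13 in BRSST+sgEzh2, 1 higher and 5 lower in BRSST+sgLuc) and progenitor markers (0 of 8 in BRSST+sgEzh2 with 3 at an unadjusted limma p under 0.05, and 3 lower of 8 in BRSST+sgLuc) had list means that overlapped sgLuc in BRSST+sgEzh2.

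The part of these shifts in the members' differences was not tested. BRSST+sgEzh2 replicate 3 had a B lineage mean of 9.20 and a T and NK mean of 8.83, beside 9.29 and 8.56 in sgLuc replicate 3. Within the B lineage list these arrays differed, in the same order: Vpreb1 read 7.21 and 9.92 and Vpreb3 6.91 and 9.54. Cd79a read 11.18 and 10.46 and Pax5 10.67 and 9.87. Their plasmacytoid dendritic cell means were 8.64 and 9.60, and their basophil and mast cell means 8.85 and 10.50. Klf9 read 8.39 on that BRSST+sgEzh2 array and 6.61 on that sgLuc array, and Fkbp5 read 10.03 on the BRSST+sgEzh2 array and 9.06 on the sgLuc array. On the erythroid list, 3 BRSST+sgEzh2 arrays lay within the sgLuc range, and every BRSST+sgLuc array lay above it (at least 8.25, against at most 7.97). Among the arrays with high Uty and Kdm5d, Klf9 averaged 8.48 in BRSST+sgEzh2 and 9.35 in BRSST+sgLuc, against 6.56 in sgLuc, and Fkbp5 averaged 10.38 in BRSST+sgEzh2 and 10.56 in BRSST+sgLuc, against 8.92 in sgLuc. The plasmacytoid dendritic cell, basophil and mast cell, mature neutrophil and B lineage list means, like Klf9 and Fkbp5, separated every BRSST array from every sgLuc array, the last 2 of these lists narrowly.

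**Figure D4:**
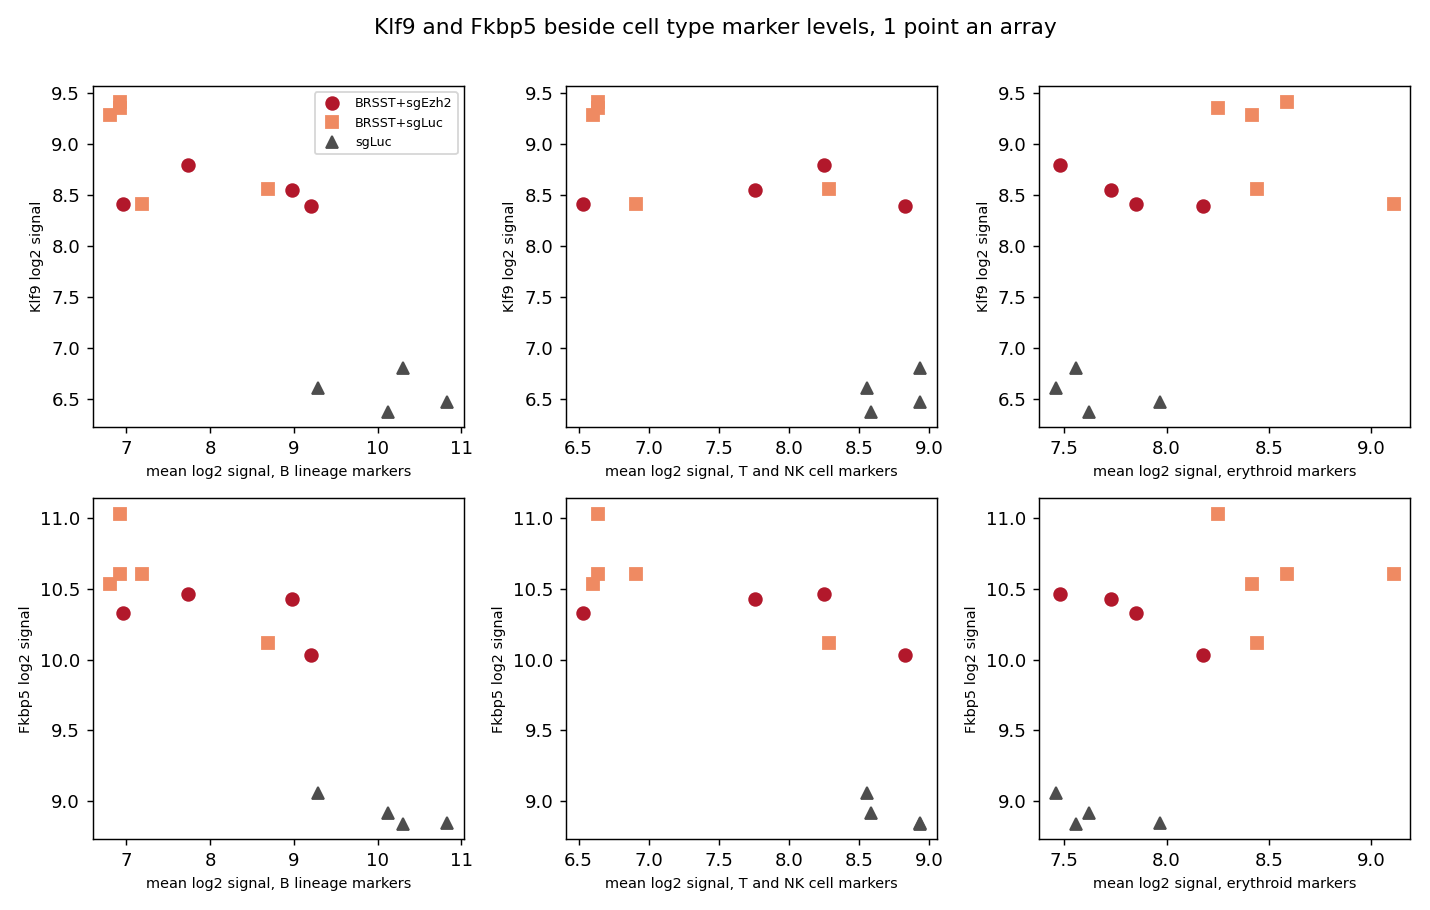
Log2 signal of Klf9 (top) and Fkbp5 (bottom) against the mean log2 signal of B lineage, T and NK cell and erythroid markers (x axes), 1 point an array, with BRSST+sgEzh2 as circles, BRSST+sgLuc as squares and sgLuc as triangles. BRSST+sgEzh2 replicate 3, at 9.20 on the B lineage axis and 8.83 on the T and NK axis, is near the sgLuc arrays on the x axis. The part of the cell mixture in the Klf9 and Fkbp5 signals was not tested.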

How the data were processed

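Bone marrow RNA was measured on 13 arrays. Per the labels' protocols, 2 ng of RNA isolated with a Zymo kit was amplified with a Pico kit and 10 PCR cycles, which can compress differences. The deposited log2 signals came from R 3.5.01 with the package oligo, according to the submitters' processing notes. How the authors corrected background and normalized was not given in the sources used here. The log2 scale was read from the values.

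Of 22203 rows, 19572 had 1 gene symbol and 2631 had none. The row of highest mean was used for the 55 symbols with more than 1 row. The Entrez numbers of all 9 members gave the same symbols in a RefSeq table of GRCm38.p6. Genes above their array's median on at least 4 arrays were tested (10601). The 3 groups, taken from the labels, were compared in 1 fit over 13 arrays (limma 3.58.1, R 4.3.3) without covariates, with Benjamini-Hochberg adjustment and a threshold of 0.05, after a test on simulated data. Each adjusted p is from limma over all genes tested, in lists too, and "rose" and "fell" are kept for genes that passed. Arrays have no read depth, so their number limits the precision.

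Members and lists were chosen with earlier results of these data known. Named genes were all members, up to 4 genes of each list past the threshold by size of difference in a comparison (or, with none, the 2 of smallest p), the 3 genes most like Nr3c1 and most like Fkbp5, and Ezh2. Of the other genes named, those of the induced and cell marker lists, Mt2, Per2 and the neutrophil genes were chosen after their values were seen. Alternatives changed the filter, the normalization, the row rule, the variance model, array weights, blocks, the groups in the fit and the arrays. Leaving out BRSST+sgLuc replicates 2 and 5 together, and using the arrays of high Y-linked signal alone, were added after seeing the data. Promoters were searched in Python 3.11.15, leaving out the chromosome of Nr3c1, and figures were drawn with matplotlib 3.10.9.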

Additional observations from a re-analysis of the deposited data

How the results depend on the processing

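The differences of the members were recomputed under every alternative, 537 values for 27 differences. No difference past the threshold changed sign, and 534 moved by less than 1 SD of the arrays. The other 3 came from the arrays of high Y-linked signal alone (2 in each BRSST group): Klf9 at -0.87 and Sgk1 at -1.39 for BRSST+sgEzh2 against BRSST+sgLuc, and Sgk1 at 0.93 for BRSST+sgLuc against sgLuc. The count of members past the threshold between the BRSST groups, 0, became 1 with array weights (Klf9) and 2 in the arrays of high Y-linked signal (Klf9 and Sgk1, both lower in BRSST+sgEzh2). With 1 array left out it stayed at 0 to 0, and it ran from 4 to 5 for BRSST+sgEzh2 against sgLuc and from 5 to 6 for BRSST+sgLuc against sgLuc. The filter at the 75th percentile gave no value for Nr3c1, Klf9, Sgk1 and Ddit4.

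Counts over all genes moved more, and the cause was not tested. In some alternatives fewer arrays or genes also entered. Between the BRSST groups, 83 genes became 128 with no filter, 36 with the filter at the 75th percentile, 55 with equal medians, 1039 with array weights, 17 with 2 groups in the fit, 170 with the Y-linked class as a block, 143 without BRSST+sgLuc replicates 2 and 5, and 722 in the arrays of high Y-linked signal. With 1 array left out they ran from 22 to 377: 22, 36 and 47 without BRSST+sgEzh2 replicates 4, 1 and 3, and 29, 34, 257 and 377 without BRSST+sgLuc replicates 1, 4, 2 and 3. For BRSST+sgLuc against sgLuc, 2389 genes became 4879 with array weights and 3655 in the arrays of high Y-linked signal, and ran from 1481 (without sgLuc replicate 1) to 2839. For BRSST+sgEzh2 against sgLuc, 993 became 2976 with array weights, 1822 with 2 groups in the fit and 1874 in the arrays of high Y-linked signal, and ran from 519 to 839, with 519 and 588 without sgLuc replicates 1 and 2 and 610 and 597 without BRSST+sgEzh2 replicates 1 and 2.

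Of the wider induced list, 2 calls between the BRSST groups became 1 with the filter at the 75th percentile, 7 with array weights, 1 with 2 groups in the fit and 8 in the arrays of high Y-linked signal, and ran from 1 to 4 with 1 array left out. Its 5 calls for BRSST+sgEzh2 against sgLuc became 12 with array weights and 8 with 2 groups in the fit, and stayed at 5 to 5. The 14 for BRSST+sgLuc against sgLuc ran from 7 to 14 with 1 array left out and from 10 to 21 under the other alternatives.

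Replicate numbers did not pair the arrays: same-numbered arrays had correlations of -0.176 to 0.192 in their deviations, 4 of 12 pairs were over 0.1, and 1 of 13 arrays correlated best with its own number. With the replicate block, 28 genes passed between the BRSST groups. The number of arrays and the lack of a batch label for sgLuc limit all comparisons.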
